A study of Mus musculus with 12 samples.

Results

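The genes described here set the pace of the G1 phase and were followed in C22 cells, a mouse club cell line, with and without TGF-β1 and with and without knockdown of Pdcd5. The 10 genes are the D cyclins Ccnd1, Ccnd2 and Ccnd3, the cyclin D kinases Cdk4 and Cdk6, the CIP/KIP inhibitors Cdkn1b and Cdkn1c, the INK4 inhibitors Cdkn2a and Cdkn2b, and the transcription factor Myc. They were chosen by symbol, with earlier results of these data known, and all 10 were found among the 23282 rows of the deposited count tables. Of these 10, 9 passed the filter on low counts that kept 12425 genes for testing, and Cdkn1c, with 1 to 13 counts per library, did not.

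RNA was read by QuantSeq 3′ mRNA-seq, which sequences the 3′ ends of polyadenylated transcripts, in 12 libraries of 4 groups of 3. NC cells received a negative control siRNA and siPdcd5 cells an siRNA against Pdcd5. The groups NC + TGF-β1 and siPdcd5 + TGF-β1 were given the same siRNAs and then 20 ng/ml TGF-β1 for 24 h, after serum withdrawal. Serum withdrawal is stated here for the TGF-β1 groups only. If the untreated groups kept serum, its withdrawal and TGF-β1 cannot be told apart. All 4 groups carry the tsA58 transgene from the H-2Kb-tsA58 mouse, a temperature-sensitive SV40 large T antigen that is active at the permissive temperature with interferon-γ, and all were differentiated under non-permissive conditions before treatment. The line is a single immortalised clone, and no source says whether the 3 libraries of a group came from separate cultures, so p-values measure the spread between these libraries, which may be technical.

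Entry into S phase depends on D cyclins, which bind and activate Cdk4 and Cdk6, and the active kinases phosphorylate the retinoblastoma protein and thereby release E2F transcription factors. INK4 proteins bind the kinases directly, while CIP/KIP proteins bind cyclin-kinase complexes and chiefly restrain Cdk2. TGF-β acts through SMAD factors and is known for halting many epithelial cells in G1, classically with induction of Cdkn2b and repression of Myc, a factor that drives growth genes and, among its known targets, Cdk4. Large T antigen binds the retinoblastoma proteins and p53, and its activity was not measured here.

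Pdcd5, the target of the siRNA, stood at 65.1 to 73.5 CPM in NC and 66.3 to 69.7 CPM in NC + TGF-β1, against 20.0 to 22.1 CPM in siPdcd5 and 21.8 to 26.4 CPM in siPdcd5 + TGF-β1. CPM are counts scaled to a library of 1000000 counts after TMM correction of the totals. The groups followed their labels in every library, with a knockdown of 3.23-fold without and 2.81-fold with TGF-β1 (log2 fold changes -1.69 and -1.49). A processed pseudogene of Pdcd5 lies on chromosome 1, and multiple alignments were counted. Library totals ran from 12809857 to 17714828 counts, so that 3 counts, used here as the floor of detection, corresponded to 0.165 to 0.239 CPM. NC + TGF-β1 replicate 2 and siPdcd5 replicate 1 stood apart from the others of their groups. Chi-square per degree of freedom was 34.2 and 61.5 for the first and 34.4 and 26.4 for the second, against 11.8 and 10.1 for the remaining pair of those groups. The defining club cell markers Scgb3a2 and Cyp2f2 had no count in any library and Scgb1a1 and Cldn10 had 3 or fewer, while Aldh1a1 was abundant. Of the 5 general epithelial markers, Epcam and Nkx2-1 also had 3 or fewer, Cdh1 had 1.91 to 4.03 CPM, and Krt8 and Krt18 were abundant, at 171 to 524 CPM and 373 to 1199 CPM. The 5 fibroblast markers (Pdgfra, Col1a1, Col1a2, Col3a1 and Dcn) were all detected, and their summed level moved with the groups, at 3750 to 3990 CPM in NC, 7420 to 8040 CPM in NC + TGF-β1, 2540 to 3120 CPM in siPdcd5 and 5590 to 5940 CPM in siPdcd5 + TGF-β1. Col1a1 and Col3a1 carried that sum, and the list did not move as one, since mean Dcn was 95.8 CPM in NC, 22.6 CPM in NC + TGF-β1, 144 CPM in siPdcd5 and 41.5 CPM in siPdcd5 + TGF-β1, and mean Pdgfra 5.90, 4.61, 5.41 and 3.80 CPM. Mean Col1a2, in the same order, was 3.58, 24.7, 12.05 and 39.45 CPM, so it lay higher in the knockdown at both treatments. The part of cell identity in the results below was not tested, and in such bulk samples fewer cells of a type and less RNA per cell cannot be told apart.

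Promoter sequence on file covered 6 of the 10 genes (RefSeq, GRCm38.p6), and Ccnd1, Ccnd2, Cdkn1c and Myc had no entry. The 250 bases upstream of 3 start sites, and 200 bases for the Arf start of Cdkn2a, are printed here, 5′ to 3′ on the strand of the gene, because their genes carry the inhibitor results and the textbook links to Myc and SMAD. Capitals mark matches to 1 motif per sequence. The motif is CACGTG, the E-box bound by Myc-Max, in Cdk4, and CAGAC, a SMAD element, in Cdkn2b. In both Cdkn2a starts it is TTTNNCGC, a loose form of the E2F element in which N is any base. The sequences lie at chr10:127063285-127063534 (Cdk4, plus strand), chr4:89311033-89311282 (Cdkn2b, minus strand), chr4:89294670-89294869 (Cdkn2a, Arf start, minus strand) and chr4:89282193-89282442 (Cdkn2a, Ink4a start, minus strand).
Cdk4: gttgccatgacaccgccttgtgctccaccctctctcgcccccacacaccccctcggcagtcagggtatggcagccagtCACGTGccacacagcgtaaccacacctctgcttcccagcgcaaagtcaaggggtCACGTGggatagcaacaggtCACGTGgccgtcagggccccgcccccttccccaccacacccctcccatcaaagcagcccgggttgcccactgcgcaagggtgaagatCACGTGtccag
Cdkn2b: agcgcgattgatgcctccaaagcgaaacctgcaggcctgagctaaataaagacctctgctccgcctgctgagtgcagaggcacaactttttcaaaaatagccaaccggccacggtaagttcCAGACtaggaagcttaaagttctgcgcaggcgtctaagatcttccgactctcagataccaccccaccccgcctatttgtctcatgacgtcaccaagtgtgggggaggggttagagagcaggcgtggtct
Cdkn2a, Arf start: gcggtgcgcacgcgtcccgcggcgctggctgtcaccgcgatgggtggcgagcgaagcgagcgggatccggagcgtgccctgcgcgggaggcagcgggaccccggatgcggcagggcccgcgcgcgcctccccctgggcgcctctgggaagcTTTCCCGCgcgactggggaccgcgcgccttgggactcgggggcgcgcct
Cdkn2a, Ink4a start: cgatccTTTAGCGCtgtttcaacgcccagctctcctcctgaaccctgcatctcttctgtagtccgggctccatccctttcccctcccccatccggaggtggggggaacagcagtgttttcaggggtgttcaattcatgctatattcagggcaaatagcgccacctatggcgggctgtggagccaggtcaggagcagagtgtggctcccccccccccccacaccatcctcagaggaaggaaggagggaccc
Both strands of the 250 bases before the start were searched in all 32851 promoters on file, and the 4 E-boxes of Cdk4 were the rarest of the marked features. At least 1 CACGTG occurred in 6.02% of promoters and at least 4 in 0.0213%. CAGAC occurred in 42.2% of promoters, so its presence at Cdkn2b sets that gene apart little. TTTNNCGC occurred in 4.28%. These matches are letters in a window, and no binding was measured in these libraries.

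TGF-β1 lowered the D cyclins, Cdk4 and Cdkn1b and raised the INK4 genes Cdkn2a and Cdkn2b in NC cells. In the quasi-likelihood F test of edgeR, with p-values adjusted by Benjamini-Hochberg over all 12425 genes, 7 of the 9 tested genes passed an adjusted p of 0.05, against 15.3% of all genes. Of these, 5 were lower (Ccnd1, Ccnd2, Ccnd3, Cdk4 and Cdkn1b; 6.77% of all genes) and 2 higher (Cdkn2a and Cdkn2b; 8.57% of all genes). The same 7 had no overlap between the 3 treated and the 3 untreated libraries, as did 29.6% of all genes, with 5 below (14.3% of all genes) and 2 above (15.3% of all genes). Without NC + TGF-β1 replicate 2, the library that stood apart, the count was again 7. With only the 6 NC libraries in the fit it was 4, and Ccnd3, Cdk4 and Cdkn2a missed the threshold at edgeR adjusted p of 0.0569, 0.0523 and 0.0624. Because the genes were chosen with earlier results of these data known, these counts do not test them as a set.

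**Figure D1:**
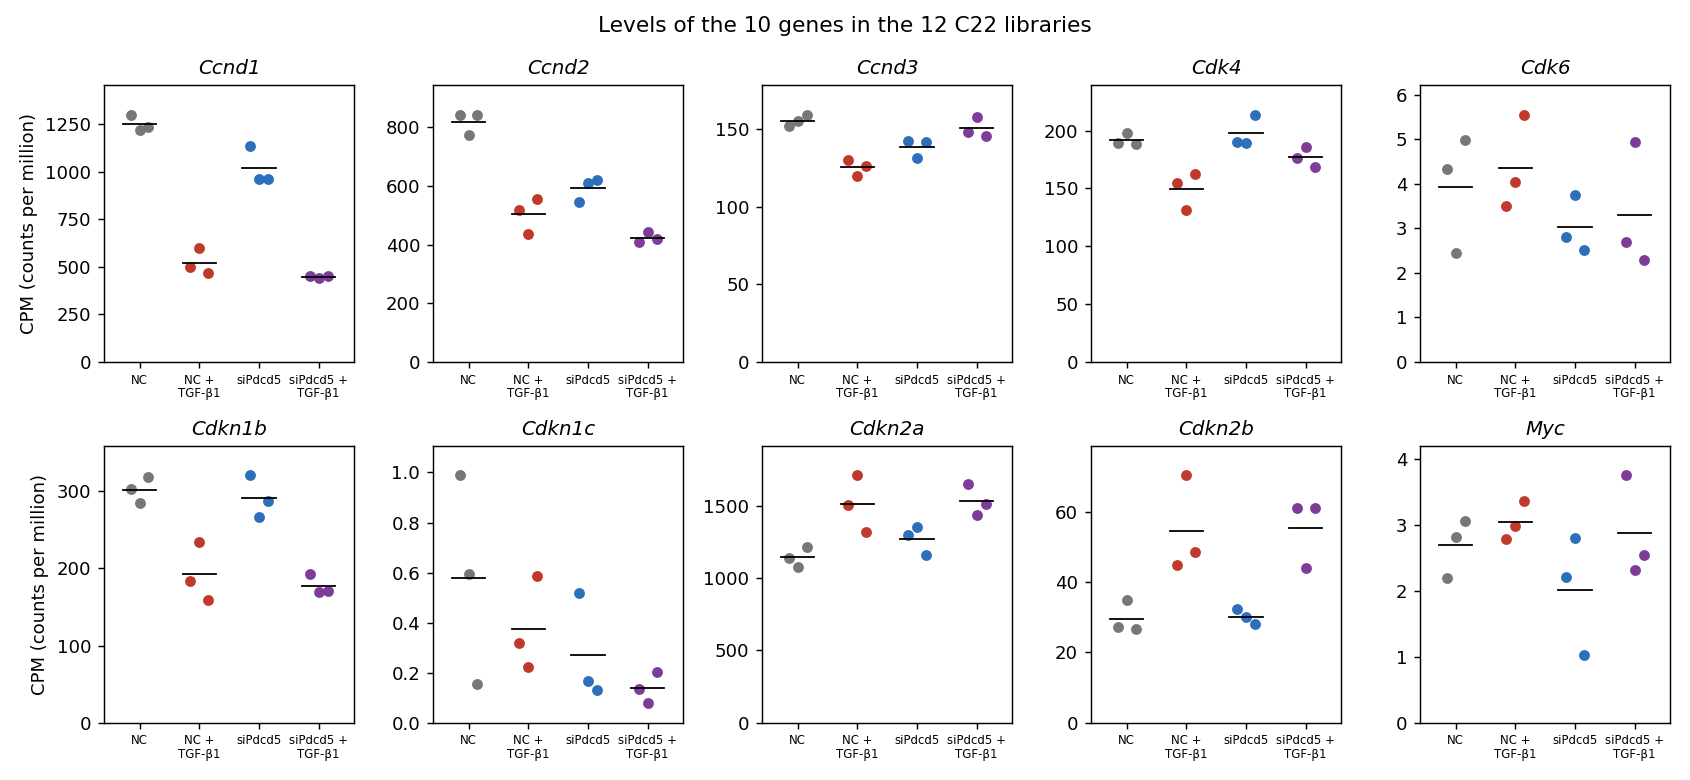
CPM (y axis, linear from 0, a separate scale per gene) of the 10 genes in each of the 12 libraries, as points by group, with a black line at the group mean. Ccnd1 fell from 1221 to 1301 CPM in NC to 469 to 599 CPM in NC + TGF-β1, Cdkn2b rose, and Cdk6, Cdkn1c and Myc lay at 5.56 CPM or less.

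Ccnd1, a cyclin induced by growth factor signals, was the most abundant of the D cyclins and fell the most. Its level in NC replicates 1 to 3 was 1301, 1221 and 1237 CPM, and in NC + TGF-β1 it was 497, 599 and 469 CPM. The siPdcd5 libraries had 1138, 962 and 964 CPM, and siPdcd5 + TGF-β1 had 453, 440 and 449 CPM. The 4 groups therefore followed each other without overlap, in the order NC, siPdcd5, NC + TGF-β1 and siPdcd5 + TGF-β1. TGF-β1 lowered Ccnd1 2.40-fold in NC cells (log2 fold change -1.26, SE 0.10; edgeR adjusted p = 8.5e-07) and 2.28-fold in knockdown cells (log2 fold change -1.19, SE 0.10; edgeR adjusted p = 1.67e-06). The neighbours that differed only by knockdown did not pass the test, at log2 fold changes of -0.29 without TGF-β1 (95% interval -0.51 to -0.08; edgeR adjusted p = 0.151) and -0.22 with it (95% interval -0.44 to -0.00; edgeR adjusted p = 0.351). The first of these did pass, at an edgeR adjusted p of 0.0433, in the fit without NC + TGF-β1 replicate 2, a library outside that comparison whose spread enters the shared fit. The 3′ end of Ccnd1 overlaps that of Oraov1 on the opposite strand by 1771 bases, and Oraov1 had at most 2.6% of the Ccnd1 level in any library.

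Ccnd2 was the single gene of the 10 that passed the test for the knockdown. NC replicates held 841, 773 and 844 CPM and siPdcd5 replicates 546, 610 and 622 CPM. With TGF-β1, the NC libraries had 520, 435 and 555 CPM and the siPdcd5 libraries 409, 442 and 419 CPM. NC was above every other library, while siPdcd5 overlapped with NC + TGF-β1 and NC + TGF-β1 overlapped with siPdcd5 + TGF-β1. Knockdown lowered Ccnd2 1.38-fold without TGF-β1 (log2 fold change -0.47, SE 0.10; edgeR adjusted p = 0.0169). This call was lost on leaving out NC replicate 1 (log2 fold change -0.45; edgeR adjusted p = 0.0756) or NC replicate 3 (log2 fold change -0.45; edgeR adjusted p = 0.0708). With TGF-β1 the knockdown difference was -0.25 on the log2 scale (95% interval -0.46 to -0.04; edgeR adjusted p = 0.261). That difference passed the test without NC + TGF-β1 replicate 2, which held the lowest value of its group (log2 fold change -0.34; edgeR adjusted p = 0.0484). TGF-β1 itself lowered Ccnd2 1.63-fold in NC cells (log2 fold change -0.70, SE 0.10; edgeR adjusted p = 0.000148) and 1.40-fold in knockdown cells (log2 fold change -0.49, SE 0.10; edgeR adjusted p = 0.00312). The antisense gene Gm43126 overlaps the 3′ end of Ccnd2 by 994 bases on the opposite strand. Strand use in counting is not stated, and the part of Gm43126 in the Ccnd2 values was not tested.

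Ccnd3, the least abundant D cyclin here, fell with TGF-β1 in NC cells, while in knockdown cells its values lay the other way without passing the test. NC libraries had 152, 155 and 159 CPM, and NC + TGF-β1 libraries 130, 120 and 126 CPM. The siPdcd5 libraries had 142, 131 and 142 CPM, and the siPdcd5 + TGF-β1 libraries 148, 158 and 146 CPM. Treated libraries were below all untreated ones in NC cells and above all untreated ones in knockdown cells. In NC cells the fall was 1.24-fold (log2 fold change -0.31, SE 0.08; edgeR adjusted p = 0.0134), and it was at the threshold, with an edgeR adjusted p of 0.05, without NC replicate 3. In knockdown cells the difference was 0.12 on the log2 scale (95% interval -0.04 to 0.29; edgeR adjusted p = 0.324). The difference between the responses was 0.43 (SE 0.11, 95% interval 0.20 to 0.67) and did not pass over all genes (edgeR adjusted p = 0.736). By DESeq2 it did, at 0.44 on the log2 scale (DESeq2 adjusted p = 0.0377).

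The gene Bysl, a ribosome assembly factor, ends on the opposite strand over the last 361 bases of Ccnd3 and followed a like course. Its libraries had 185, 186 and 191 CPM in NC, 176, 161 and 178 CPM in NC + TGF-β1, 182, 164 and 181 CPM in siPdcd5, and 206, 219 and 199 CPM in siPdcd5 + TGF-β1. No source states whether counting used strand, so reads of Ccnd3 and Bysl cannot be told apart in the shared stretch. The corresponding difference between responses was 0.37 for Bysl (edgeR adjusted p = 0.82), and Pearson's r between the log2 levels of both genes was 0.79 over the 12 libraries. A processed pseudogene, Ccnd3-ps, lies on chromosome 4, and multiple alignments were counted. The part of Bysl or of the pseudogene in the Ccnd3 values was not tested.

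**Figure D2:**
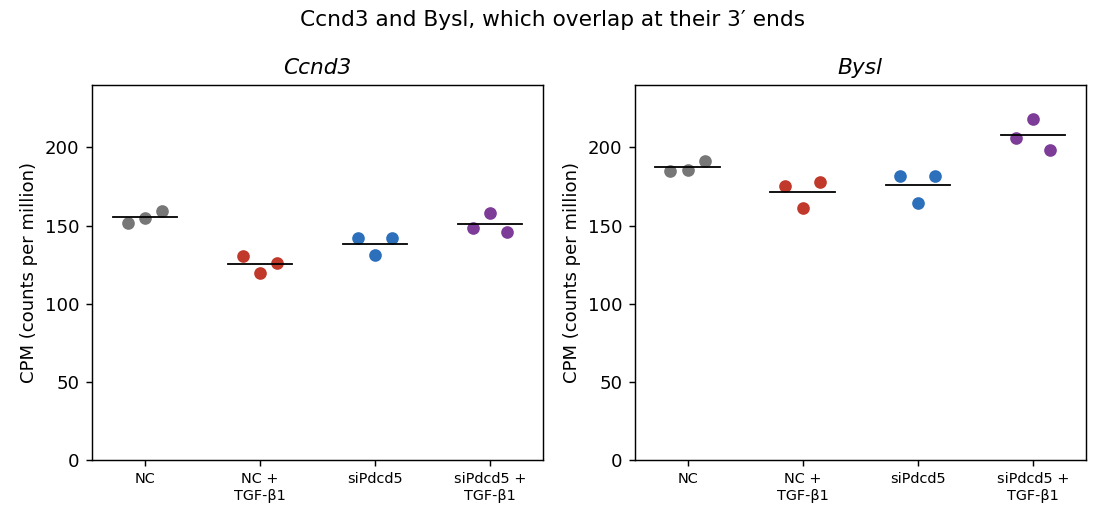
CPM (y axis, linear from 0) of Ccnd3 and of Bysl, whose annotated 3′ ends overlap, in the 12 libraries by group, with a black line at each group mean. With TGF-β1, Ccnd3 was lower in NC cells (120 to 130 against 152 to 159 CPM) and lay higher in knockdown cells (146 to 158 against 131 to 142 CPM), and Bysl was at 199 to 219 CPM in siPdcd5 + TGF-β1, its highest group.

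Counted together, the D cyclins made up less of the library with TGF-β1 and the share of Ccnd3 among them was larger. Each 3′ tag stands for about 1 transcript whatever its length, so the counts of the 3 genes were added. The Ccnd3 count may hold reads of Bysl, which had up to 141% of the Ccnd3 level, or of Ccnd3-ps. The share of Ccnd3 carries that limit. Their sum was 2228 ± 73.5 CPM in NC (SD, n = 3) and 1150 ± 3.45 CPM in NC + TGF-β1 (SD, n = 3). In siPdcd5 it was 1752 ± 64.9 CPM and in siPdcd5 + TGF-β1 1021 ± 16.0 CPM (SD, n = 3 each), and no group overlapped another. Ccnd3 held 6.98% ± 0.317 of the sum in NC and 10.9% ± 0.493 in NC + TGF-β1, and 7.90% ± 0.272 in siPdcd5 and 14.8% ± 0.415 in siPdcd5 + TGF-β1 (SD, n = 3 each). Ccnd1 held 55.2 to 62.3% without and 40.8 to 51.9% with TGF-β1 over both siRNAs. These sums and shares are descriptions and were not tested.

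**Figure D3:**
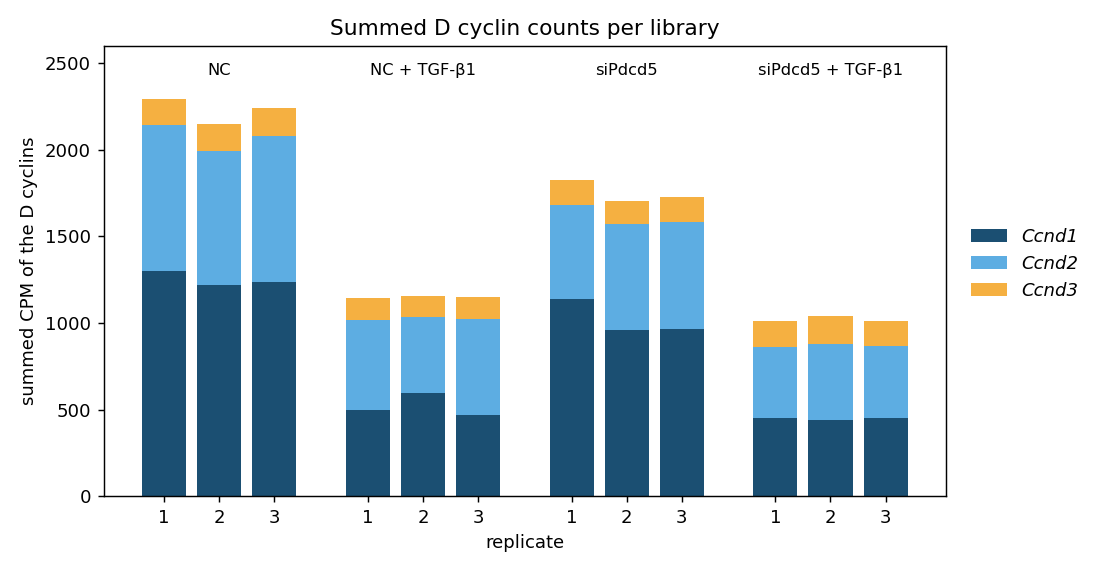
Stacked CPM of Ccnd1, Ccnd2 and Ccnd3 (y axis, linear from 0) for replicates 1 to 3 of each group (x axis). The sum lay at 2149 to 2294 CPM in NC and 1703 to 1826 CPM in siPdcd5, and at 1147 to 1154 CPM and 1009 to 1039 CPM with TGF-β1.

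Cdk4 was the main cyclin D kinase by count and was modestly lower with TGF-β1 in NC cells. Its NC libraries had 190, 198 and 189 CPM and its NC + TGF-β1 libraries 155, 131 and 162 CPM. The siPdcd5 libraries had 190, 189 and 214 CPM, and siPdcd5 + TGF-β1 had 176, 186 and 169 CPM. All treated libraries were below all untreated ones within each siRNA, and NC and siPdcd5 overlapped. The fall was 1.29-fold in NC cells (log2 fold change -0.36, SE 0.09; edgeR adjusted p = 0.0153), and without NC replicate 2 it no longer passed (log2 fold change -0.34; edgeR adjusted p = 0.0655). In knockdown cells the difference was -0.16 (95% interval -0.36 to 0.04; edgeR adjusted p = 0.283). The responses of the 2 backgrounds differed by 0.20 (95% interval -0.08 to 0.49; edgeR adjusted p = 0.958), so they were not shown to differ. Tspan31 overlaps the 3′ end of Cdk4 by 641 bases on the opposite strand, at 22.7 to 41.7 CPM and up to 31.8% of the Cdk4 level. In NC cells Tspan31 differed by 0.07 on the log2 scale with TGF-β1 (edgeR adjusted p = 0.844), and in knockdown cells by -0.31 (edgeR adjusted p = 0.243). For the knockdown it differed by 0.04 without TGF-β1 (edgeR adjusted p = 0.937) and -0.33 with it (edgeR adjusted p = 0.4). Strand use is not stated, so reads of both genes cannot be told apart in the shared stretch. The part of Tspan31 in the Cdk4 values was not tested.

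Cdk6, the other kinase partner of the D cyclins, was close to the limit of measurement at 33 to 76 counts per library. Its levels were 2.45 to 4.99 CPM in NC, 3.50 to 5.56 CPM in NC + TGF-β1, 2.51 to 3.75 CPM in siPdcd5 and 2.29 to 4.94 CPM in siPdcd5 + TGF-β1. All 4 groups overlapped, and the 95% interval of the TGF-β1 difference in NC cells ran from -0.54 to 0.86 on the log2 scale. No direction was resolved, and differences within that interval remain compatible with these counts.

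Cdkn1b, which encodes the Cdk2 inhibitor Kip1, fell with TGF-β1 whatever the siRNA. NC libraries had 302, 285 and 319 CPM and NC + TGF-β1 libraries 184, 234 and 158 CPM. The siPdcd5 libraries had 321, 267 and 287 CPM and the siPdcd5 + TGF-β1 libraries 192, 169 and 171 CPM. Every treated library was below every untreated one, while the siRNA groups overlapped at both treatments. The fall was 1.57-fold in NC cells (log2 fold change -0.65, SE 0.13; edgeR adjusted p = 0.00223) and 1.64-fold in knockdown cells (log2 fold change -0.72, SE 0.13; edgeR adjusted p = 0.00112). Knockdown differences were -0.05 without TGF-β1 (95% interval -0.32 to 0.22) and -0.11 with it (95% interval -0.38 to 0.16) on the log2 scale.

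Cdkn1c, which encodes the related inhibitor Kip2, was barely detected. Its counts were 2 to 13 in NC, 3 to 8 in NC + TGF-β1, 2 to 7 in siPdcd5 and 1 to 3 in siPdcd5 + TGF-β1, and several libraries were at or under the floor of 3. In a fit with no filter on low counts its TGF-β1 difference in NC cells was -0.62 on the log2 scale with an SE of 0.80 (edgeR adjusted p = 0.721), so no direction can be given.

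Cdkn2a was the more abundant gene of the INK4 locus on chromosome 4 and rose modestly with TGF-β1. NC libraries had 1141, 1077 and 1213 CPM and NC + TGF-β1 libraries 1507, 1709 and 1319 CPM. In siPdcd5 they had 1294, 1352 and 1156 CPM and in siPdcd5 + TGF-β1 1652, 1432 and 1514 CPM. Treated libraries were above untreated ones within each siRNA, but siPdcd5 overlapped with NC and with NC + TGF-β1. The rise was 1.32-fold in NC cells (log2 fold change 0.40, SE 0.11; edgeR adjusted p = 0.0179), and the TGF-β1 difference in knockdown cells was 0.27 (95% interval 0.05 to 0.50; edgeR adjusted p = 0.1). The NC call did not hold without NC replicate 1 (log2 fold change 0.40; edgeR adjusted p = 0.0626), without NC replicate 2 (log2 fold change 0.36; edgeR adjusted p = 0.0891) or after quantile normalization with limma (log2 fold change 0.26; limma adjusted p = 0.215). The TGF-β1 difference in knockdown cells passed without NC + TGF-β1 replicate 2 (log2 fold change 0.27; edgeR adjusted p = 0.0363). The locus makes an Ink4a and an Arf transcript from separate first exons (chr4:89281986-89282192 and chr4:89294334-89294653), and both run into the same exons 2 and 3. Tags from the 3′ end therefore count both together, and the values say nothing of which start was used.

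Cdkn2b, which encodes the inhibitor Ink4b and starts downstream of the CAGAC element printed above, rose the most of the 10 genes. NC libraries had 27.2, 34.8 and 26.6 CPM and NC + TGF-β1 libraries 44.9, 70.3 and 48.6 CPM. The siPdcd5 libraries had 32.33, 29.99 and 28.01 CPM and the siPdcd5 + TGF-β1 libraries 60.9, 44.0 and 61.0 CPM. The treated and untreated libraries were fully separate, and the siRNA groups overlapped at both treatments. The rise was 1.85-fold in NC cells (log2 fold change 0.89, SE 0.18; edgeR adjusted p = 0.00275) and 1.84-fold in knockdown cells (log2 fold change 0.88, SE 0.18; edgeR adjusted p = 0.00284). The responses differed by -0.01 (95% interval -0.54 to 0.52; edgeR adjusted p = 0.999). Cdkn2a and Cdkn2b lie 11645 bases apart. Cdkn2b made up 2.53% ± 0.523 of their summed counts in NC and 3.47% ± 0.535 in NC + TGF-β1 (SD, n = 3 each).

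Myc was low in these cells, at 16 to 56 counts per library, and no direction was resolved. Its levels were 2.21, 2.82 and 3.07 CPM in NC, 2.79, 2.99 and 3.36 CPM in NC + TGF-β1, 2.21, 2.81 and 1.03 CPM in siPdcd5, and 3.76, 2.31 and 2.55 CPM in siPdcd5 + TGF-β1. All 4 groups overlapped. The TGF-β1 difference was 0.18 in NC cells (95% interval -0.52 to 0.87; edgeR adjusted p = 0.792) and 0.50 in knockdown cells (95% interval -0.19 to 1.20; edgeR adjusted p = 0.335) on the log2 scale. The lower bounds bear on any fall of Myc at 24 h, and a fall larger than 0.52 in NC cells or 0.19 in knockdown cells lay outside these intervals.

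In knockdown cells, TGF-β1 changed 4 of the 9 tested genes by the test, against 16.1% of all genes. Of these, 3 were lower (Ccnd1, Ccnd2 and Cdkn1b; 7.61% of all genes) and 1 higher (Cdkn2b; 8.5% of all genes). The groups of 7 genes did not overlap, as for 36.1% of all genes. Treated libraries lay below for Ccnd1, Ccnd2, Cdk4 and Cdkn1b (18.1% of all genes) and above for Ccnd3, Cdkn2a and Cdkn2b (17.9% of all genes). Without siPdcd5 replicate 1, the library that stood apart, 4 genes passed as well.

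The knockdown itself was tested at both treatments. Without TGF-β1 it passed for 1 of 9 genes, Ccnd2, against 3.44% of all genes (2.54% lower and 0.901% higher). Values of 3 genes did not overlap (Ccnd1, Ccnd2 and Ccnd3, each lower in the knockdown), against 23.1% of all genes (12.5% lower and 10.6% higher). With TGF-β1 edgeR called 0 of the 9, against 1.55% of all genes (1.22% lower and 0.33% higher), while 4 had an unadjusted p under 0.05, as did 13.8% of all genes. DESeq2 called 1, Ccnd3, against 3.21% of all genes it tested. Here Ccnd1 was lower and Cdk4 and Ccnd3 were higher without overlap, against 18.9% of all genes (10% lower and 8.84% higher), at log2 fold changes of -0.22 for Ccnd1, 0.24 for Cdk4 and 0.27 for Ccnd3. The test of whether knockdown altered the TGF-β1 response called 0 of the 9 and 0% of all genes by edgeR. At an unadjusted p under 0.05, it held 1 of the 9 (Ccnd3) and 638 of all genes, which is 5.13%, and DESeq2 called 1 of the 9 and 13 genes in all, which is 0.0716% of those it tested. Apart from Ccnd3, the differences between responses ran from -0.13 for Cdkn2a to 0.33 for Myc on the log2 scale. A response that passed in one background and not in the other, as for Ccnd3, Cdk4 and Cdkn2a, was thus not shown by edgeR to differ between them.

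**Figure D4:**
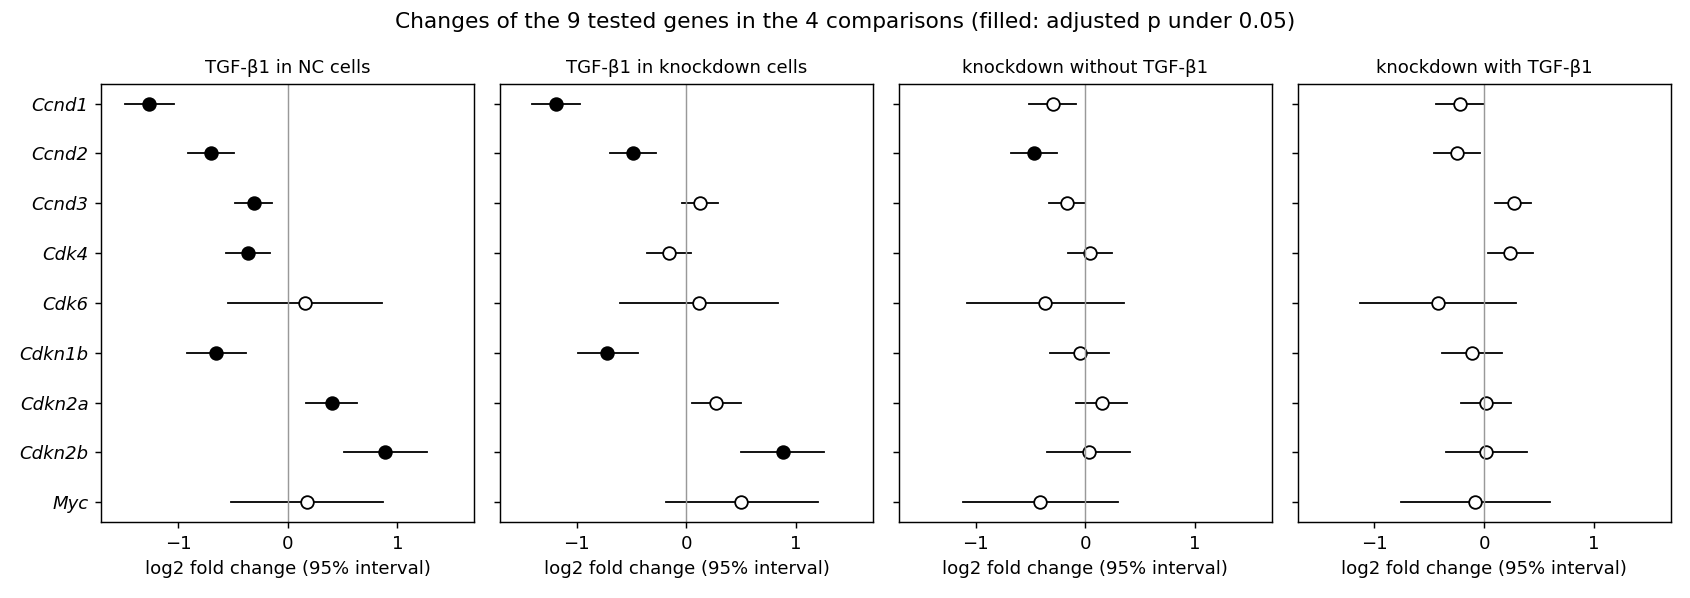
Log2 fold changes (x axis) with 95% intervals of the 9 tested genes in the 4 pairwise comparisons. Filled points passed an edgeR adjusted p of 0.05, which were 7, 4, 1 and 0 genes from the left panel to the right. Intervals of Cdk6 and Myc are the widest.

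Other regulators of the G1/S step moved in both directions. Of 28 such genes tested, TGF-β1 raised 1 and lowered 4 in NC cells, and raised 2 and lowered 3 in knockdown cells, with medians of 0.01 and -0.03 beside 0.00 and -0.03 over all genes. The background was 8.57% of all genes higher and 6.77% lower in NC cells, and 8.5% higher and 7.61% lower in knockdown cells. Cdkn2c, a further INK4 inhibitor, fell from 160 to 175 CPM in NC to 68.3 to 96.0 CPM in NC + TGF-β1 (log2 fold change -1.08), and by 0.87 on the log2 scale in knockdown cells. Cdkn2d, the remaining INK4 gene, fell by 0.77 in NC cells and by 0.63 in knockdown cells. The 4 INK4 genes thus did not move as one, since Cdkn2b was higher and Cdkn2c and Cdkn2d lower in both backgrounds. The factor E2f2 fell (log2 fold changes -1.04 and -0.98), and Fbxw7, whose product marks cyclin E and Myc proteins for breakdown, rose from 89.9 to 93.2 CPM in NC to 147 to 167 CPM in NC + TGF-β1 (log2 fold changes 0.78 in NC and 0.74 in knockdown cells). The E2F partner Tfdp2 fell in NC cells (-0.41) and the phosphatase gene Cdc25a rose in knockdown cells (0.30). Mnat1, a subunit of the kinase that activates other CDKs, was the 1 gene of the 28 lowered by the knockdown, at log2 fold changes of -0.34 without and -0.46 with TGF-β1. The shares of all genes lowered by the knockdown were 2.54% without and 1.22% with TGF-β1.

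Cdkn1a, the remaining CIP/KIP inhibitor and a known p53 target, was the most abundant inhibitor, at 3056 to 4034 CPM over all libraries. It did not pass in any comparison, with TGF-β1 differences of 0.14 in NC cells (95% interval -0.07 to 0.34) and 0.19 in knockdown cells (95% interval -0.01 to 0.39) on the log2 scale. The cyclin E genes and their kinase did not pass either. In NC cells the TGF-β1 differences were 0.11 for Ccne1, 0.24 for Ccne2, 0.02 for Cdk2 and 0.09 for Rb1, which encodes the retinoblastoma protein.

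The genes around Myc gave few calls, while its textbook targets lay above 0. Of the other 13 members of the Myc-Max-Mxd network, Mycn, Mycl and Mlxipl were below the filter. Of the 10 tested, TGF-β1 lowered 1 in each background, Mxd4, a repressor that competes with Myc for Max (log2 fold changes -0.34 and -0.35). Over all genes, 8.57% were higher and 6.77% lower by the test in NC cells, and 8.5% and 7.61% in knockdown cells. Of 30 Myc targets, 4 rose and 1 fell in NC cells, and 10 rose and 0 fell in knockdown cells. Their medians were 0.16 and 0.28, beside 0.00 and -0.03 over all genes, and 25 and 29 of the 30 had a positive value. Shmt2, an enzyme of mitochondrial one-carbon metabolism, rose most, by 0.93 and 0.89 on the log2 scale, followed by Srm, spermidine synthase, by 0.65 and 0.62. Rrp9 rose in NC cells (0.43), Nme1 in both backgrounds (0.36 and 0.48), and Npm1, which encodes nucleophosmin, fell in NC cells (-0.36). The knockdown called 0 of the 30 at either treatment by edgeR, against 3.44% of all genes without and 1.55% with TGF-β1. Without TGF-β1 the knockdown median of the targets was 0.03, beside 0.02 over all genes, and 20 of the 30 had a positive value. With TGF-β1 it was 0.16, beside -0.02 over all genes, and 25 of the 30 had a positive value. Myc itself was too low for a change to be resolved, so the level of these targets and that of Myc mRNA cannot be set against each other.

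Genes of S phase and of G2/M were tested as well, beside 6.77% of all genes lower in NC cells and 7.61% in knockdown cells. Of 24 E2F targets of S phase, 2 fell in NC cells (Tk1, -0.63, and Cdt1, -0.48) and 1 in knockdown cells (Cdt1, -0.31), which is near those shares, and 0 rose in either. Their medians were -0.16 and -0.07, beside 0.00 and -0.03 over all genes. Of 15 G2/M genes, 9 fell in NC cells and 3 in knockdown cells, with 0 rising, and medians of -0.45 and -0.33. Aurkb, a kinase of the chromosome passenger complex, fell in NC cells from 40 to 51 counts to 11 to 19 counts per library (log2 fold change -1.47), followed by Kif11 (-0.90) and Ccnb2 (-0.71). In knockdown cells the 3 were Ccnb1 (-0.70), Cdc20 (-0.68) and Ube2c (-0.60). Without TGF-β1 the knockdown called 1 S phase gene, Rrm1 (-0.37), against 2.54% of all genes lower. With TGF-β1 it called 1 G2/M gene, Birc5 (0.49), against 0.33% of all genes higher. The difference in TGF-β1 response between the backgrounds called 0 of the 24 and 0 of the 15 genes by edgeR.

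**Figure D5:**
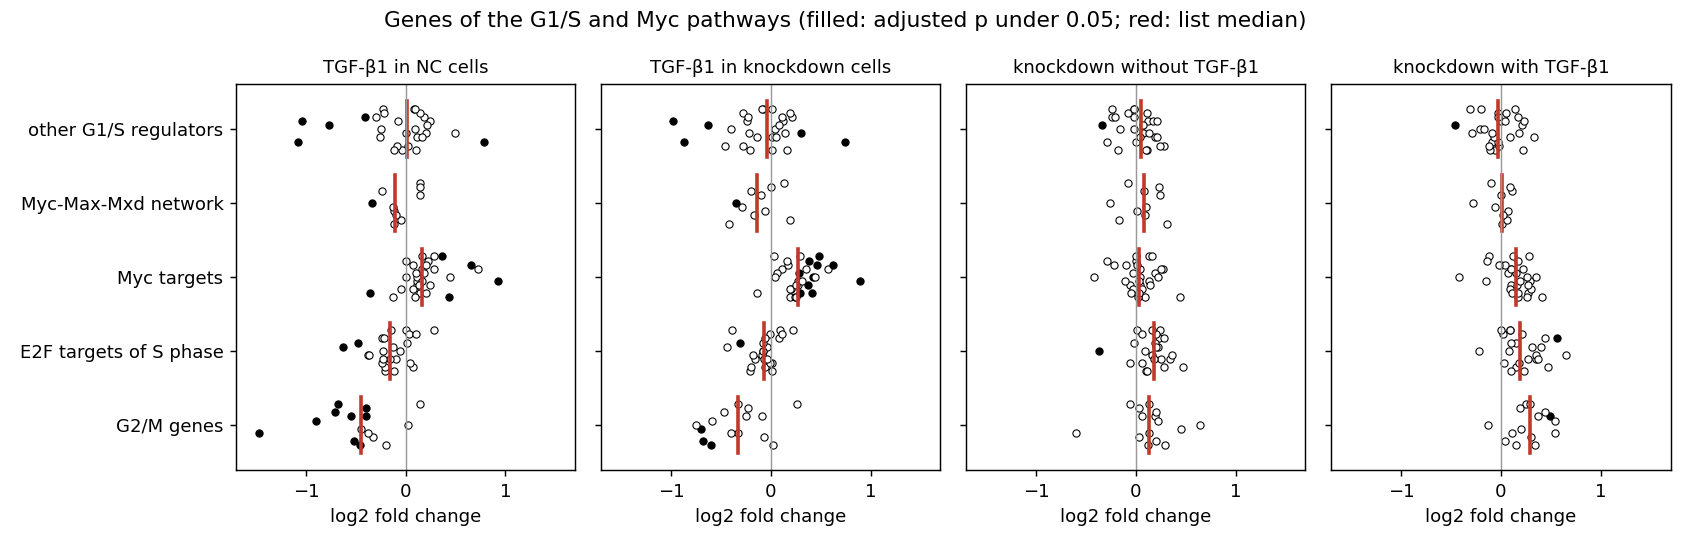
Log2 fold changes (x axis) of the tested genes of 5 lists in the 4 pairwise comparisons, 1 point per gene, filled where the edgeR adjusted p was under 0.05, with a red line at each list's median. With TGF-β1 the G2/M medians lay at -0.45 and -0.33 and the Myc target medians at 0.16 and 0.28.

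For the 7 genes that passed in at least 1 comparison, the genes with the most similar course were found by Pearson's r of log2 CPM over the 12 libraries, among 9127 genes. The points share 4 group means, so these values are descriptions. Ccnd1 was closest to Ppm1k (0.993), Tgfb3 (0.987) and Id3 (0.986), and Ccnd2 to Ezr (0.987), Gpm6a (0.985) and Lbh (0.982). Cdkn1b was closest to Pim3 (0.987), Ugt1a6b (0.978) and Gata6 (0.975), and Cdkn2b to Clic4 (0.973), Slc25a26 (0.970) and Lrig1 (0.968). Cdkn2a was closest to Glipr1 (0.961), Krr1 (0.953) and G3bp1 (0.953), and Cdk4 to Stmn1 (0.947), Tmem53 (0.946) and Phax (0.945). Ccnd3 had no gene as near, with Mrps6 (0.860), D330041H03Rik (0.834) and Cpt2 (0.828) at the top.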

How the data were processed

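QuantSeq 3′ mRNA-seq of 12 C22 libraries was deposited by the authors as raw counts per gene, with no normalization in the values. According to the methods, reads were aligned with Bowtie2 and counted over genes with Bedtools coverage from unique and multiple alignments, and the submitters' processing notes name mm10. The annotation and the use of strand are not given in the sources used here. Of 23282 rows, 44 repeat a symbol and 5134 hold no count. Groups and replicate numbers were taken from the labels. From these counts, edgeR 4.0.16 (R 4.3.3) was run on all 12 libraries with filterByExpr, TMM factors, group means only and its quasi-likelihood F test, with Benjamini-Hochberg adjustment over 12425 genes and a threshold of 0.05. The difference in TGF-β1 response between siRNAs was a contrast of the same fit. The square root of the common dispersion was 0.132. DESeq2 1.42.0, limma 3.58.1 after quantile normalization, other filters and scalings, a replicate block and leaving out each library were alternatives. The steps were tested on simulated data.

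Genes named from a list were at most the 3 with the largest change per list and comparison among those past the threshold, with Cdkn1a, Cdkn2c, Cdkn2d, Ccne1, Ccne2, Cdk2 and Rb1 named whatever their values, and for each of the 10 genes past the threshold the 3 genes of highest Pearson's r (log2 CPM, prior count 2, mean log2 CPM of 3 or more). Oraov1, Gm43126, Bysl and Tspan31 were named for their overlap. The 10 genes and the lists were chosen with earlier results of these data known. Gene positions are from GENCODE on GRCm38, the assembly of mm10. A result of a pathway list is not reported here.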

Additional observations from a re-analysis of the deposited data

Results flagged for a closer look

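Ccnd3 was singled out because the 3 treated libraries lay below the 3 untreated ones in NC cells and above them in knockdown cells, and because the 3 knockdown libraries lay below NC without TGF-β1 and above NC with it. Both are the same difference of differences, 0.43 on the log2 scale (SE 0.11; edgeR adjusted p = 0.736; DESeq2 adjusted p = 0.0377). The difference ranged from 0.40 to 0.47 over 19 alternatives, of which 1, DESeq2, brought it past the threshold. Bysl, which overlaps its 3′ end, had a difference of 0.37, and the part of Bysl in these values was not tested.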

How the results depend on the processing

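Calls of Ccnd1, Ccnd2, Cdkn1b and Cdkn2b under TGF-β1 held in 20 of 20 alternatives in both siRNA backgrounds, and no called direction reversed. Outside the fits that left out a library, 70 of 78 counts stayed within 1.5 times the reported value. The others were the TGF-β1 calls among the 10 genes in NC cells (4 with only the 6 libraries compared), the knockdown calls over all genes without TGF-β1 (671 by DESeq2 against 427) and with it (436 by DESeq2 and 44 with only 6 libraries, against 192), the knockdown calls among the 10 genes with TGF-β1 (1 by DESeq2), and the difference between responses (1 of the 10 genes and 13 genes in all by DESeq2). The cause was not tested. Same-numbered libraries deviated together little or not at all, so the numbers were not taken as pairs. Their correlations were 0.01 to 0.17, -0.06 to 0.03, -0.03 to 0.08 and -0.32 to -0.04 in the 4 comparisons. The replicate block gave 7, 4, 1, 0 and 0 calls among the 10 genes, and 107 calls over all genes for knockdown with TGF-β1.

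Leaving out 1 library at a time gave 5 to 7 calls among the 10 genes for TGF-β1 in NC cells (5 without NC replicate 2) and 1391 to 2554 over all genes. For TGF-β1 in knockdown cells it gave 4 to 5 and 1371 to 2761. For knockdown without TGF-β1 it gave 0 to 2 (0 without NC replicate 1 or 3, 2 without NC + TGF-β1 replicate 2) and 167 to 667 over all genes (235, 167 and 206 without NC replicates 1, 2 and 3, 210 without siPdcd5 replicate 3, 667 without NC + TGF-β1 replicate 2). For knockdown with TGF-β1 it gave 0 to 1 (1 without NC + TGF-β1 replicate 2) and 73 to 322 over all genes (127 without NC replicate 3, 111, 322 and 121 without NC + TGF-β1 replicates 1, 2 and 3, and 87, 81 and 73 without siPdcd5 + TGF-β1 replicates 1, 2 and 3). For the difference between responses it gave 0 to 0 and 0 to 2 (2 without NC + TGF-β1 replicate 2). Depth limits Myc, Cdk6 and Cdkn1c, at 76 counts or fewer per library.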
